A study of Macaca fascicularis with 4 samples.

Results

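Skeletal muscle of the cynomolgus monkey (Macaca fascicularis) was compared with liver and with 2 fat tissues labelled oWAT and sWAT, where WAT commonly stands for white adipose tissue. The comparison used 4 of the 4 libraries of the series, 1 muscle library against 3 others. Each library was made from RNA of 5 monkeys pooled by tissue and was read as full-length cDNA on the PacBio Sequel II platform. The labels give no treatment, age, sex or diet for the animals, and do not name the muscle that was sampled. With 1 library per tissue there is no spread between animals to test against, so the intervals below cover counting error only and no p-value is given.

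A gene was called higher in muscle only where all 3 pairings agreed: at least 10 counts in muscle, and a ratio of scaled counts whose exact 95% interval began above 2 against liver, against oWAT and against sWAT. It was called lower where it had at least 10 counts in each of the other 3 libraries and each of them exceeded muscle by the same bound. Each gene is described by its least favourable pairing, as a fold followed by the interval. Where the lower library had 0 counts, a floor of 3 counts stands in for 0 and the fold is given as "at least". That value is not an interval bound: for MYOD1 it is 24.4, and the exact lower bound of the same pairing is 19.4. The smallest lower bound can also lie in another pairing. For HSPB7 the value is 135, over liver, and the smallest lower bound is 63.55, over sWAT. Library totals gave the first scaling (CPM, the usual scale for the share of a library). The second used totals adjusted by trimmed mean of M-values (TMM), a factor that discounts genes dominating 1 library.

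Skeletal muscle fibres are multinucleate cells that form when precursor cells fuse. Their gene programme is set by the MyoD family of transcription factors together with MEF2 proteins and other partners. Nerve impulses reach the fibre through acetylcholine receptors, spread by voltage-gated channels and release calcium, which triggers contraction and also signals to the nucleus. Fibres burn glucose and fat but, unlike liver and fat, are not known as major sites of lipid synthesis or of secretion of plasma proteins.

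The libraries held between 383896 and 439872 counts assigned to genes, so 1 count corresponded to between 2.27 CPM (muscle) and 2.60 CPM (sWAT). Counts can be read side by side only on the scale of the library total. The TMM factor ranged from 0.67 (liver) to 1.35 (oWAT), so the same counts compare differently on that scale. All 15 myofibre markers were called higher in muscle, and their summed level was 145331 CPM there against 126 to 133 CPM in the others. Hepatocyte markers were at 0 in muscle for 16 of 17 genes. Adipocyte markers were present in muscle at 3406 CPM in sum, against 6769 in liver, where PCK1 and RBP4 gave most of it, 23866 in oWAT and 26663 in sWAT, with ADIPOQ at 43 counts and with CIDEC, CIDEA and PCK1 at 0. Fibroblast markers summed to 22679 CPM in muscle, against 436 in liver, 28191 in oWAT and 87245 in sWAT. The muscle library is thus a whole-tissue sample with fibroblast and adipocyte transcripts in it, and in such bulk tissue fewer cells of a type and less RNA per cell cannot be told apart.

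Among the 5809 genes that reached 10 counts in muscle, 390 (6.71%) were called higher with the library total, 441 (7.59%) with TMM, and 364 (6.27%) with both. Of 3813 genes with at least 10 counts in each of the other 3 libraries, 84 (2.20%) were called lower with the library total, 50 (1.31%) with TMM and 46 (1.21%) with both. The genes called higher took 37.2% of muscle counts and between 0.713% and 1.66% of the counts of the others. Those called lower took 0.488% of muscle counts, against 10.8% in liver, 3.38% in oWAT and 2.77% in sWAT.

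The pairings differed in how many genes passed. Against liver alone 1338 genes passed the bound as higher in muscle, against oWAT alone 482 and against sWAT alone 536, and 390 passed all 3. As lower in muscle, 315 passed against liver, 385 against oWAT and 378 against sWAT, and 84 passed all 3. TMM moved the fat and liver pairings in opposite ways: it raised the log2 ratio of muscle to oWAT by 0.56 and to sWAT by 0.41 and lowered that to liver by 0.44. Just inside the threshold for higher were EPN1 and TACC2 (smallest lower bounds 2.003 and 2.016), and just outside were NOL3 and ADIPOR1 (1.97 and 1.96). For lower, LSS lay inside (2.05) and APMAP outside (1.999).

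**Figure D1:**
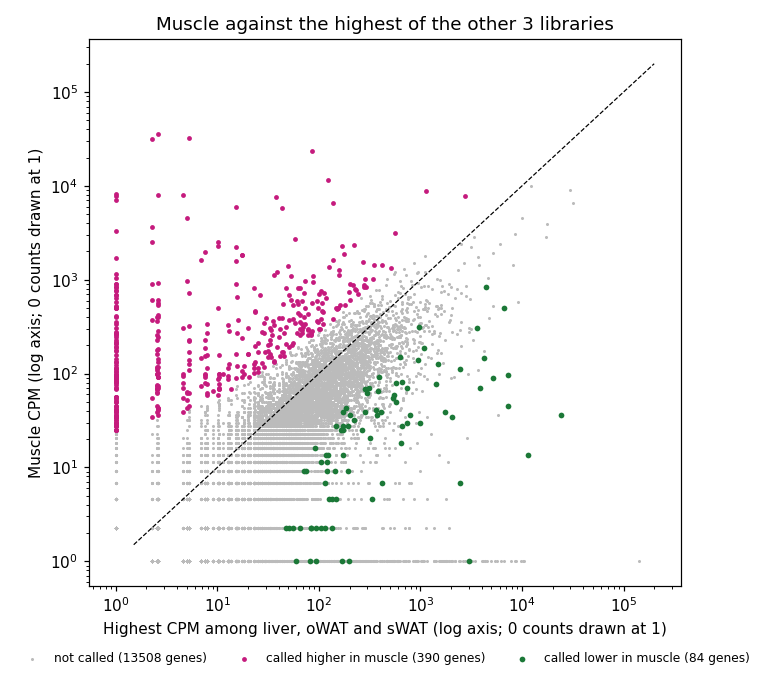
Each point is 1 gene, with its highest CPM among liver, oWAT and sWAT on the horizontal axis and its muscle CPM on the vertical axis (both log axes, 0 counts drawn at 1, dashed line at equal CPM). The 390 genes called higher lie above the line and the 84 called lower lie below it, the latter at no more than 843 CPM in muscle.

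The MyoD family and several of its partners were called higher. Of 37 listed myogenic and muscle-gene factors, 34 had counts, 20 reached 10 counts in muscle and 11 were called higher, with either scaling. Over all tested genes the share was 6.71% with the library total and 7.59% with TMM. The list's median log2 ratio of muscle to liver, oWAT and sWAT was 4.77, 1.82 and 1.63, against 0.48, -0.55 and -0.37 over all 10127 genes with at least 10 counts in total. Many members had 0 counts in liver, so the medians depend on the 0.5 counts added to each value, and with 2 added counts they were 3.16, 1.57 and 1.59. MYOD1, the founding member of the MyoD family, had 84 counts in muscle and 0 in each other library (at least 24.4-fold). MYOG, which drives terminal differentiation, had 43 counts in muscle, 1 in oWAT and 0 in liver and sWAT (at least 12.5-fold), and MYF6, the family member of mature fibres, had 40 in muscle, 1 in sWAT and 0 elsewhere (at least 12.03-fold). These 3 factors were therefore all but undetected outside muscle at this depth. The floor of 3 counts stands for 6.86 CPM in liver, 7.56 in oWAT and 7.81 in sWAT. MYF5 was not among the names analysed here.

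EYA proteins act on muscle genes as partners of homeobox factors such as SIX4. EYA1 had 30 counts in muscle and EYA4 had 37, both with 0 in the other 3 libraries (at least 8.73-fold and 10.8-fold). SIX4 had 41 counts in muscle, 0 in liver, 5 in oWAT and 2 in sWAT, a ratio of 7.40 over oWAT (2.92 to 24.0). EYA3, with 8 counts in muscle and 5 in each other library, fell short of the minimum and was not tested for a higher call.

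MEF2C and TBX15 were shared with fat at lower levels. MEF2C, a factor that cooperates with the MyoD family, had 150 counts in muscle, 5 in liver, 30 in oWAT and 42 in sWAT, 3.12-fold over sWAT (2.20 to 4.50). MEF2A had 34 counts in muscle, 5 in liver, 24 in oWAT and 34 in sWAT and was not called. TBX15, a T-box factor of limb muscle and of some fat depots, had 359 counts in muscle, 3 in liver, 2 in oWAT and 24 in sWAT, so that sWAT alone among the others carried more than a trace. TEAD4, which binds muscle promoter elements, had 44 counts in muscle, 0 in liver, 5 in oWAT and 7 in sWAT (5.49-fold over sWAT, 2.45 to 14.4). LBX1, known from migrating muscle precursors, had 18 counts in muscle and 0 in the others (at least 5.24-fold).

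SMYD1, a muscle histone methyltransferase and myosin chaperone, gave the widest margin of the list, with 368 counts in muscle and 0 in the other 3 libraries (at least 107-fold). Among 26 listed coactivators and nuclear receptors of oxidative muscle, 17 reached the minimum and 3 were called, against 6.71% of all tested genes. PERM1, a muscle regulator that works with PGC-1 coactivators, had 54 counts in muscle and 0 elsewhere (at least 15.7-fold). NR4A1, an inducible nuclear receptor, had 122 counts in muscle, 1 in liver, 11 in oWAT and 5 in sWAT. TFEB, the regulator of lysosome genes, had 26 counts in muscle and 3 or 4 in each other library, and it lost the call with TMM, under which RXRG was called instead. PPARGC1A, the PGC-1 alpha gene, was not higher in muscle here: it had 12 counts in muscle, 45 in liver, 7 in oWAT and 4 in sWAT. The clock list gave 1 call of 11 testable genes, a share near the 6.71% of all tested genes. It was CRY2, with 306 counts in muscle, 101 in liver, 88 in oWAT and 94 in sWAT, and that call too was lost with TMM (2.22-fold).

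**Figure D2:**
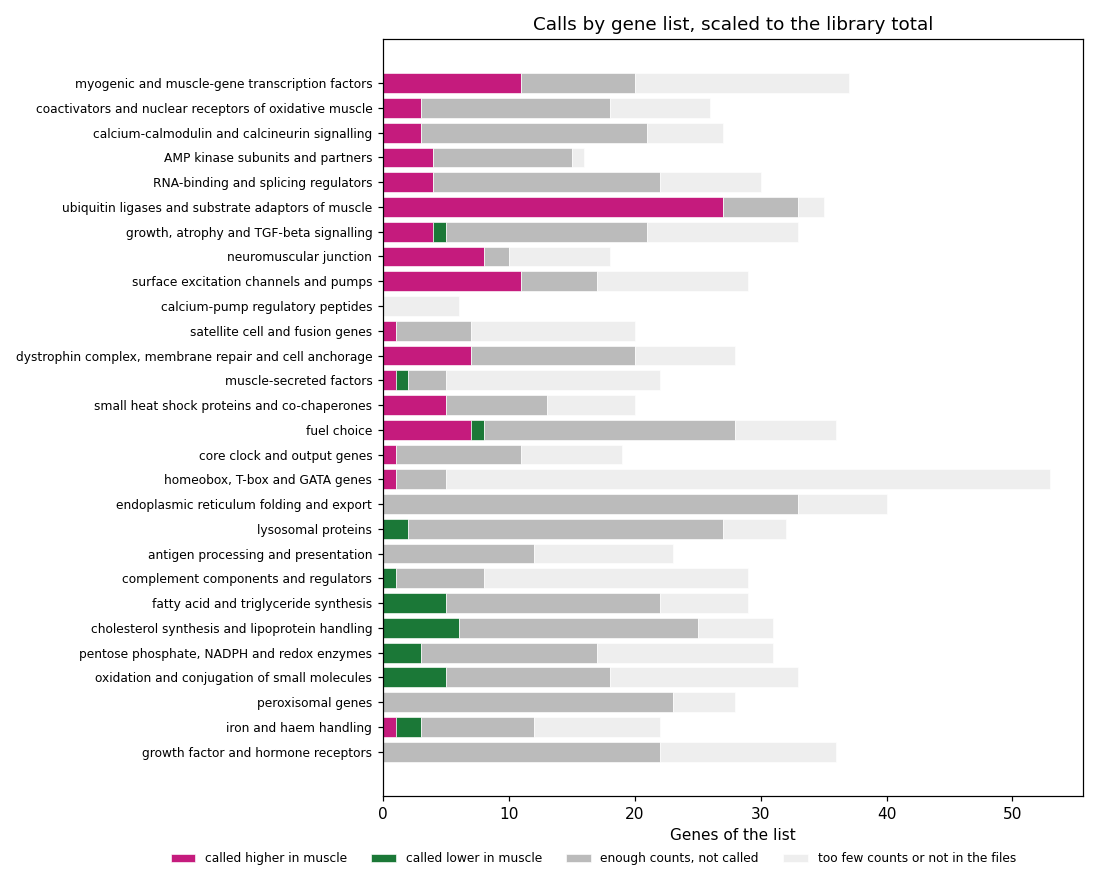
Bars give the number of genes of each of 28 lists that were called higher in muscle, called lower, had enough counts but were not called, or had too few counts or no entry in the files, with scaling to the library total. The ubiquitin ligase list has the most genes called higher (27), and the lists with 3 or more genes called lower are those of lipid, redox and small-molecule metabolism.

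Positional regulators were mostly too sparse to compare. Of 53 homeobox, T-box and GATA genes, 38 had counts, 5 reached 10 counts in muscle and 1 was called (6.71% of all tested genes). It was HOXC10, a posterior HOX gene, with 14 counts in muscle and 0 elsewhere. HOXA10 had 15 counts in muscle, 0 in liver, 1 in oWAT and 9 in sWAT and was not called. TBX3 had 37 counts in muscle, 113 in liver, 45 in oWAT and 55 in sWAT, and was not called in either direction.

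Calcium-dependent and energy-sensing kinases were split by subunit. CAMK2A, the alpha subunit of calcium-calmodulin kinase II, had 362 counts in muscle, 1 in liver, 9 in oWAT and 18 in sWAT (17.6-fold, 10.9 to 29.9). CAMK2B had 165 counts in muscle, 7 in liver, 2 in oWAT and 0 in sWAT (23.4-fold over liver, 11.1 to 59.2). CAMK2D, with 42 counts in muscle, 15 in liver, 23 in oWAT and 45 in sWAT, was not called, and CAMK2G, with 55, 4, 19 and 7 in the same order, was called with TMM only. The calcineurin subunits PPP3CA and PPP3CB were not called with either scaling; their muscle counts of 109 and 72 were nonetheless the highest of the 4 libraries. In all, 3 of 21 testable genes of this list were called with the library total (6.71% of all tested genes). With TMM 5 were called (7.59% of all), where CAMK2G and NFATC1 were added. STAC3, an adaptor of the voltage sensor, was the other call, with 119 counts in muscle and 1 to 3 in each other library (34.6-fold, 11.6 to 170).

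AMP-activated protein kinase is a trimer that senses low energy charge. From its list 4 of 14 testable genes were called (6.71% of all tested genes). PRKAG3, the gamma subunit of glycolytic fibres, had 218 counts in muscle and 0 in the others (at least 63.4-fold). PRKAA2, the alpha 2 catalytic subunit, had 43 counts in muscle, 1 in oWAT and 0 in liver and sWAT (at least 12.5-fold). PRKAA1, which encodes the other catalytic subunit, had 15 counts in muscle, 11 in liver, 28 in oWAT and 25 in sWAT. PRKAB2 had 132 counts in muscle, 34 in liver, 15 in oWAT and 24 in sWAT and lost the call with TMM, at 2.84-fold. TBC1D1, a substrate of the kinase in glucose transporter traffic, was called at 6.03-fold over oWAT (3.55 to 10.9), while its relative TBC1D4 had 41 counts in muscle, 10 in liver, 52 in oWAT and 56 in sWAT.

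Of 22 testable RNA-binding and splicing regulators 4 were called higher (6.71% of all tested genes), RBM24, RBM38, RBM20 and FXR1, and the list's medians of 0.55, -0.36 and -0.32 lay beside 0.48, -0.55 and -0.37 for all genes. RBM24, which promotes muscle splicing, had 142 counts in muscle, 0 in liver, 1 in oWAT and 2 in sWAT (at least 47.1-fold). RBM38, its close relative, had 24 counts in muscle, 1 in liver and 0 in both fat libraries. RBM20, known for titin splicing, had 29 counts in muscle, 4 in liver and 2 in each fat library, and was not called with TMM. FXR1, of the fragile X family, had 218 counts in muscle, 15 in liver, 35 in oWAT and 38 in sWAT (5.01-fold, 3.53 to 7.27). The widely expressed SRSF and MBNL genes listed were not called, nor were CELF1, CELF2 and RBFOX2. ESRP2, a splicing factor of epithelia, had 98 counts in liver, 3 in oWAT and 0 in muscle and sWAT.

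**Figure D3:**
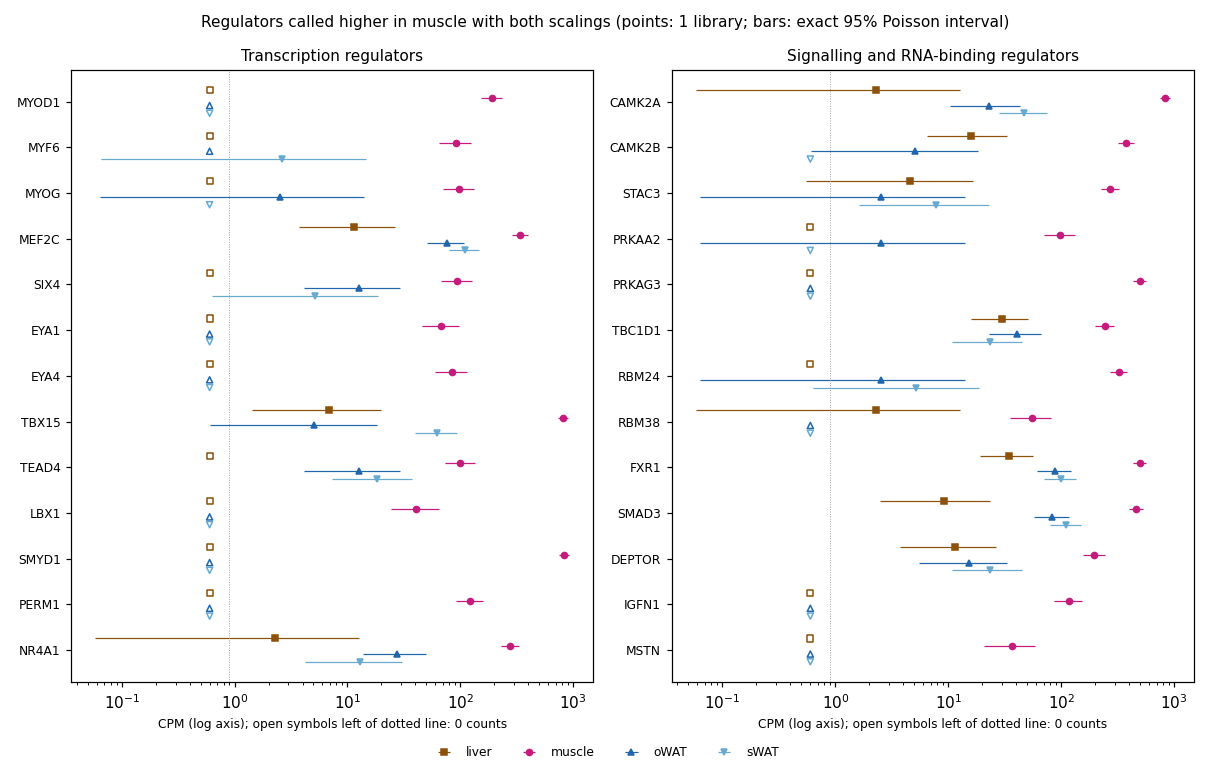
CPM (log axis) of 26 regulators called higher in muscle with both scalings, 1 point per library with its exact 95% Poisson interval; open symbols mark 0 counts. In each panel the muscle point lies to the right of the other 3, and MEF2C, FXR1 and SMAD3 have the closest neighbours, in the 2 fat libraries.

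Ubiquitin ligases and their adaptors, which select proteins for breakdown or stabilisation, gave the highest share of calls among the lists other than markers. Of 35 listed genes 33 reached 10 counts in muscle and 27 were called with both scalings, against 6.27% of all tested genes. The list was written for muscle, and it also holds LMOD3, UNC45B, USP13 and USP28, which are not ligases. The medians were 6.59 over liver, 6.04 over oWAT and 5.99 over sWAT, and with 2 added counts in place of 0.5 they were 4.75, 4.41 and 4.16. The summed level was 12156 CPM in muscle against 311 to 567 CPM in the others. ASB2, a substrate receptor of cullin ligases, had 991 counts in muscle, 0 in liver, 6 in oWAT and 2 in sWAT (149-fold over oWAT, 68.2 to 407). ASB15, ASB16, ASB14, ASB11, ASB10 and ASB18 had between 13 and 227 counts in muscle and 0 in the other libraries, whereas ASB8, with 25 in muscle and 6 to 8 elsewhere, was not called.

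The kelch proteins KLHL40 and KLHL41 stabilise thin filament proteins. They had 304 and 370 counts in muscle and 0 elsewhere (at least 88.4-fold and 108-fold). LMOD3, the thin filament nucleator that KLHL40 protects, had 279 and the myosin chaperone UNC45B had 255, again with 0 in the other libraries (at least 81.2-fold and 74.2-fold). FBXO40, a ligase for an insulin receptor substrate, had 269 counts in muscle, 1 in sWAT and 0 elsewhere. At this depth these genes, which serve folding, assembly and turnover, were not detected outside muscle, apart from the 1 count of FBXO40.

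The atrophy ligases behaved differently from each other outside muscle. TRIM63, known as MuRF1, had 48 counts in muscle, 1 in oWAT and 0 in liver and sWAT (at least 13.96-fold). FBXO32, known as atrogin-1, had 267 counts in muscle, 1 in liver, 21 in oWAT and 16 in sWAT (11.5-fold, 7.35 to 18.8). The deubiquitinases USP13 and USP28 were called at 28.2-fold (17.9 to 47.2) and 3.98-fold (2.60 to 6.28). STUB1, a ligase linked to chaperones, had 10 counts in muscle, 11 in liver, 14 in oWAT and 9 in sWAT, and CUL3 and FBXO30 were not called.

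Among growth, atrophy and TGF-beta signalling genes, 4 of 20 testable genes were called higher (6.71% of all tested genes). In the other direction 1 of 11 testable genes was called lower (2.20% of all). MSTN, which encodes the growth inhibitor myostatin, had 16 counts in muscle and 0 in the others (at least 4.65-fold). SMAD3, which transmits its signal, had 201 counts in muscle, 4 in liver, 33 in oWAT and 42 in sWAT (4.18-fold, 2.98 to 5.97), while SMAD2, with 19 in muscle, 5 in liver, 23 in oWAT and 24 in sWAT, was not called. DEPTOR, an inhibitor of mTOR, had 86 counts in muscle and 5, 6 and 9 in liver, oWAT and sWAT (8.34-fold, 4.19 to 18.8). IGFN1, a protein of the Z-disc region, had 51 counts in muscle and 0 elsewhere. IGF1 was the lower gene, with 1 count in muscle, 22 in liver, 14 in oWAT and 13 in sWAT, a ratio of 14.9 (2.237 to 633) that missed the bound with TMM.

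At the neuromuscular junction 8 of 10 testable genes were called (6.71% of all tested genes). The acetylcholine receptor subunits CHRNA1 and CHRNB1 had 51 and 178 counts in muscle and at most 3 in any other library (14.8-fold, 4.80 to 74.3, and at least 59.0-fold). CHRND and CHRNG had 17 counts each in muscle. CHRNG encodes the subunit of the fetal receptor and was called (at least 4.95-fold), and CHRNE, of the adult receptor, had 0 counts in muscle, 2 in oWAT and 1 in sWAT. ACHE, which breaks down acetylcholine, had 32 counts in muscle, 1 in liver, 1 in oWAT and 0 in sWAT, and the scaffold genes DOK7 and RAPSN had 14 and 15 in muscle, the latter without a call under TMM. MUSK, the receptor kinase that organises the junction, had 5 counts in muscle and was below the minimum.

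Surface excitation genes gave 11 calls among 17 testable genes (6.71% of all tested genes). SCN4A, the sodium channel of muscle, had 100 counts in muscle, 1 in liver, 0 in oWAT and 2 in sWAT (at least 30.1-fold). The potassium channel genes KCNA7, KCNC4 and KCNQ5 had 42, 63 and 19 counts in muscle and at most 1 elsewhere. ATP1B1, a beta subunit of the sodium pump, was called, with 280 counts in muscle, 51 in liver, 47 in oWAT and 16 in sWAT. CACNB1, a subunit of the voltage sensor, had 238 counts in muscle, 1 in sWAT and 0 elsewhere. Of 6 listed calcium-pump peptides 1 had counts, STRIT1, with 5 in muscle.

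Of 20 listed precursor and fusion genes, 6 reached 10 counts in muscle and 1 was called (6.71% of all tested genes). It was CDH15, the M-cadherin of satellite cells, with 18 counts in muscle and 0 elsewhere. PAX7, which marks satellite cells, had 5 counts in muscle and 0 in the others, below the minimum. ITGA7, an integrin of muscle and vessel wall, had the most counts of the list in muscle, 217, against 8 in liver, 187 in oWAT and 285 in sWAT, and was not called. The adhesion gene NCAM1, with 54 counts in muscle, 0 in liver, 17 in oWAT and 10 in sWAT, was called with TMM only. It is also in the nerve and Schwann cell list, whose summed level was 223 CPM in muscle, 43.4 in liver, 161 in oWAT and 83.4 in sWAT with 2 of its 12 genes at 0 in muscle and 2 not among the names analysed here. The part of such cells in the result was not tested.

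Of 20 testable genes of the dystrophin complex, membrane repair and anchorage, 7 were called (6.71% of all tested genes). SYNM (synemin), an intermediate filament protein, had 421 counts in muscle, 1 in liver, 16 in oWAT and 28 in sWAT (13.1-fold, 8.95 to 19.99), and SGCA, the alpha-sarcoglycan, had 58 in muscle, 1 in sWAT and 0 elsewhere. DYSF, the repair protein dysferlin, had 139 counts in muscle, 30 in liver, 11 in oWAT and 27 in sWAT (4.49-fold, 2.96 to 7.06). Dystrophin itself was not called: DMD had 109 counts in muscle, 75 in liver, 18 in oWAT and 26 in sWAT, so liver stood closest.

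Among 13 testable chaperones 5 were called (6.71% of all tested genes), led by HSPB7, a small heat shock protein of striated muscle. HSPB7 had 408 counts in muscle, 0 in liver and 1 in each fat library. That was at least 135-fold over liver, and the smallest lower bound was 63.55, over sWAT. BAG3, a co-chaperone, was called at 12.4-fold (7.60 to 21.7) and HSPB8, which binds BAG3, at 7.35-fold (5.29 to 10.5). The general chaperones HSPA8, HSP90AA1 and HSP90AB1 were not called, with 159, 74 and 224 counts in muscle. Of 22 listed muscle-secreted factors 16 had counts. MSTN was called higher, of 4 testable genes, and ANGPTL4 was called lower with both scalings, of 3. Over all tested genes 6.71% were called higher and 2.20% lower with the library total. IL6, IL15, FNDC5 and OSTN had 1, 4, 5 and 4 counts in muscle.

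Fuel choice genes gave 7 higher calls of 27 testable genes and 1 lower call of 10 (6.71% and 2.20% of all tested genes). The lower gene was ACACB, an acetyl-CoA carboxylase, with 40 counts in muscle, 139 in liver, 135 in oWAT and 149 in sWAT (3.49-fold, 2.44 to 5.10), and it lost the call with TMM (2.53-fold). AMPD1, the AMP deaminase of muscle, had 338 counts in muscle and 0 elsewhere (at least 98.3-fold), and ADSS1, of the same purine cycle, had 412 in muscle, 38 in liver and 2 in each fat library (10.8-fold, 7.73 to 15.5). SLC2A4, the insulin-responsive glucose transporter, had 317 counts in muscle, 1 in liver, 45 in oWAT and 43 in sWAT (6.36-fold, 4.64 to 8.89). PDP1, the phosphatase that activates pyruvate dehydrogenase, had 260 counts in muscle, 1 in liver, 38 in oWAT and 28 in sWAT (6.17-fold, 4.38 to 8.92). PDK4, the kinase that opposes it, was not called in either direction, at 93 in muscle, 220 in liver, 267 in oWAT and 180 in sWAT. SLC16A3, a lactate exporter, was called at 3.79-fold over oWAT (2.30 to 6.52).

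Of the genes with the largest margins outside the contractile, calcium-store and glycolytic families, those not yet named were DES, CMYA5, MSS51, UCP3 and PPP1R3A. CMYA5, a desmin-associated protein, had 716 counts in muscle, 3 in liver and 1 in each fat library (237-fold, 80.9 to 1154). MSS51, a mitochondrial protein, had 430 in muscle, 0 in liver, 2 in oWAT and 1 in sWAT. That was at least 143-fold over liver, and its smallest lower bound was 53.36, over oWAT. Over the 17 lists written for muscle, 97 of 258 testable genes were called higher and 3 of 100 testable genes lower. Over the 11 lists written for liver and fat, 1 of 200 was called higher, the oxygen store MB, and 23 of 192 were called lower. Among all tested genes the shares were 6.71% higher and 2.20% lower.

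Genes called lower in muscle than in liver and both fat libraries ranged from those without a muscle count to A2M, with 371. ANGPTL4, a secreted inhibitor of lipoprotein lipase, had 0 counts in muscle, 39 in liver, 78 in oWAT and 47 in sWAT (at least 13.1-fold lower in muscle). PCK1, which opens the route from oxaloacetate to glucose and glycerol, had 0 in muscle, 1325 in liver, 77 in oWAT and 30 in sWAT (at least 11.5-fold). MGST1, a membrane glutathione transferase, had 0 in muscle, 41 in liver, 23 in oWAT and 29 in sWAT (at least 8.50-fold). In these 3 genes the muscle library, where the floor of 3 counts stands for 6.82 CPM, held no count. Of the 84 genes, 6 had 0 counts in muscle, 17 had 1 to 3 and 47 had 10 or more.

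**Figure D4:**
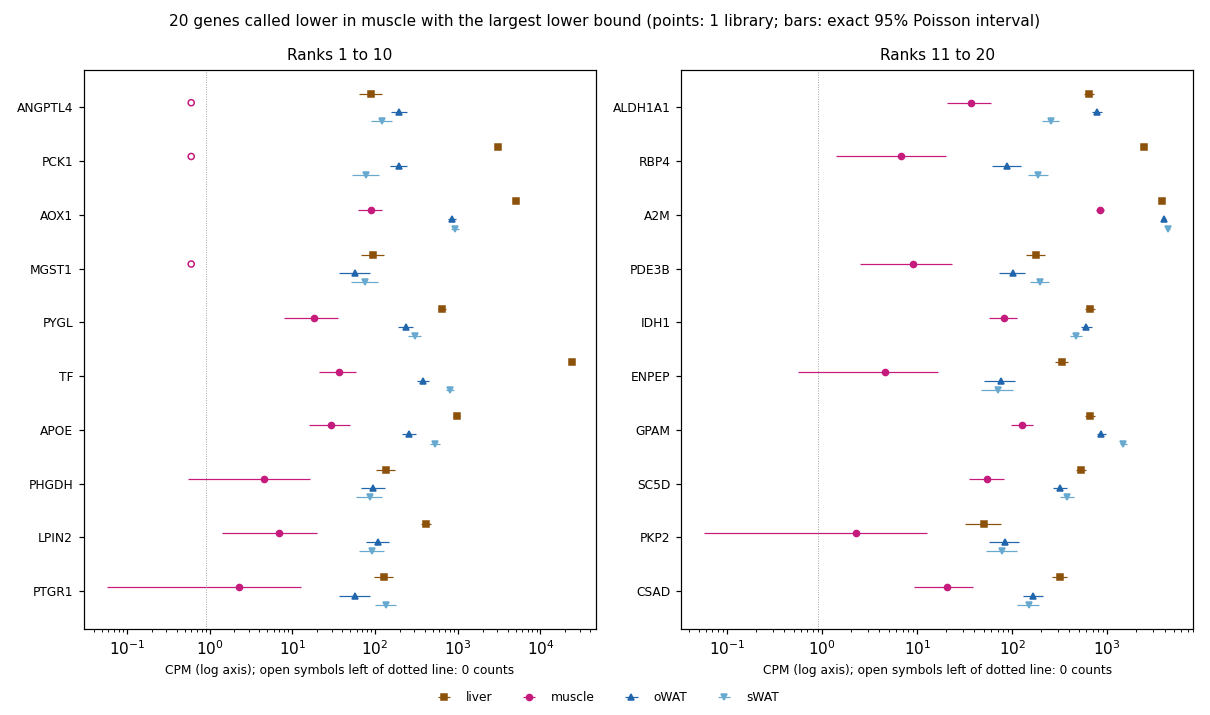
CPM (log axis) of the 20 named genes called lower in muscle with the largest lower bound, 1 point per library with its exact 95% Poisson interval; open symbols mark 0 counts in muscle. The muscle point is leftmost for each gene, liver is far to the right for TF, PCK1, AOX1 and RBP4, and A2M has near-equal CPM in the other 3 libraries.

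Plasma and carrier proteins were among the most abundant genes of the set. TF (transferrin) had 16 counts in muscle, 10586 in liver, 151 in oWAT and 308 in sWAT (10.5-fold over muscle in oWAT, 6.24 to 18.8). APOE, which directs lipoprotein uptake, had 13, 428, 103 and 202 in the same order (8.78-fold, 4.92 to 17.1), and RBP4, the retinol carrier, had 3, 1063, 35 and 72 (12.9-fold, 4.08 to 65.7). A2M, a protease inhibitor, was even across the others on the scale of the library total. It had 1661 counts in liver, 1562 in oWAT and 1681 in sWAT against 371 in muscle (4.50-fold, 4.02 to 5.05). The TMM factors of 0.67 for liver and 1.35 for oWAT set those libraries further apart. C3, the central complement component, had 6 in muscle, 4997 in liver, 1050 in oWAT and 32 in sWAT, and its call was lost with TMM, at 4.59-fold with an interval reaching below the bound. It was the 1 gene called of 8 testable complement genes with the library total (2.20% of all testable genes). With TMM 2 of them were called instead, C1QC and C7 (1.31% of all).

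Enzymes of lipid synthesis were also called lower. Of 21 testable fatty acid and triglyceride genes 5 were called lower, against 2.20% of all testable genes. The list's medians were -0.79 over liver, -1.70 over oWAT and -1.38 over sWAT, beside 0.48, -0.55 and -0.37 for all genes. GPAM, which starts glycerolipid synthesis, had 56 counts in muscle, 287 in liver, 342 in oWAT and 567 in sWAT (5.15-fold, 3.86 to 6.99). LPIN2, a phosphatidate phosphatase, had 3 in muscle, 182 in liver, 43 in oWAT and 35 in sWAT (13.4-fold, 4.21 to 67.9), and DGAT2, which makes triglyceride, had 83, 300, 407 and 416 (3.63-fold, 2.84 to 4.69). The fatty acid activating enzymes ACSL1 and ACSL5 were called at 3.10-fold (2.65 to 3.64) and 5.24-fold (2.91 to 10.1), ACSL1 without a call under TMM. FASN and SCD were not called, as SCD had 1248 counts in muscle against 560 in liver. LPIN1 likewise had 71 in muscle, 9 in liver, 210 in oWAT and 239 in sWAT.

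Of 23 testable cholesterol and lipoprotein genes 6 were called lower (2.20% of all testable genes). The medians were -1.71, -1.37 and -1.48, beside 0.48, -0.55 and -0.37 for all genes. The genes called included the synthesis enzymes SC5D (5.87-fold, 3.77 to 9.49) and LSS, with APOE, the lipoprotein receptor SCARB1 (3.91-fold, 2.68 to 5.84) and LIPA, the lysosomal lipase (3.28-fold, 2.22 to 4.97). LSS lost the call with TMM. The receptor VLDLR was not called and had 67 counts in muscle, 3 in liver, 29 in oWAT and 17 in sWAT.

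Oxidation and conjugation of small molecules gave 5 lower calls of 15 testable genes, against 2.20% of all testable genes. AOX1, an aldehyde oxidase, had 39 counts in muscle, 2247 in liver, 337 in oWAT and 355 in sWAT (9.58-fold, 6.86 to 13.7). ALDH1A1, which makes retinoic acid, had 16, 282, 310 and 98 (7.02-fold, 4.11 to 12.8). ADH1B, CES1 and AKR1C1 were called with the library total and not with TMM. In the list of pentose phosphate, NADPH and redox enzymes, 3 of 14 testable genes were called (2.20% of all). They were IDH1, MGST1 and the catalase gene CAT, the last without TMM. IDH1, a cytosolic source of NADPH, had 36 counts in muscle, 287 in liver, 239 in oWAT and 179 in sWAT (5.70-fold, 3.97 to 8.39).

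Other genes of the leading 20 served varied steps. PYGL, the liver form of glycogen phosphorylase, had 8 counts in muscle, 284 in liver, 94 in oWAT and 116 in sWAT (13.0-fold, 6.35 to 31.1). PHGDH, the entry enzyme of serine synthesis, had 2 in muscle, 59 in liver, 38 in oWAT and 33 in sWAT (18.9-fold, 4.83 to 163). PDE3B, the phosphodiesterase by which insulin lowers cyclic AMP, had 4 in muscle, 78 in liver, 40 in oWAT and 75 in sWAT (11.1-fold, 4.01 to 42.7). PTGR1, PKP2, ENPEP and CSAD had 1, 1, 2 and 9 counts in muscle and between 22 and 145 in any other library. PKP2 encodes a desmosome plaque protein and CSAD an enzyme of taurine synthesis.

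For several other processes shared by liver and fat, at most 2 genes were called lower. Endoplasmic reticulum folding and export had 0 of 32 testable genes called lower. Its medians were -0.96, -0.96 and -0.83, beside 0.48, -0.55 and -0.37 for all genes. PDIA4 had 44 counts in muscle, 437 in liver, 202 in oWAT and 107 in sWAT and did not reach the bound. Peroxisomal genes had 0 of 17, antigen presentation 0 of 10 and hormone and growth factor receptors 0 of 19. Lysosomal proteins had 2 of 27, CTSL and LIPA, the former lost with TMM. Iron handling had TF and SLC40A1, the iron exporter, of 8 testable genes, and SLC40A1 was lost with TMM. The iron list's medians were -1.35, -1.49 and -2.02, beside 0.48, -0.55 and -0.37 for all genes. With 2 added counts in place of 0.5 they were -0.80, -1.33 and -1.66. The lysosomal and iron shares lay above the 2.20% of all testable genes, but stand on 2 genes each, or 1 with TMM.

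With the library total, the summed markers of macrophages and lymphocytes were lower in muscle than in each other library. So was the adipocyte sum, though PCK1 and RBP4, both called lower themselves, gave most of it in liver. The adipocyte list's median log2 ratio of muscle to liver was 1.58. Lymphocyte markers came to 65.9 CPM in muscle, 93.7 in liver, 426 in oWAT and 167 in sWAT, and hepatocyte markers to 2.27, 194629, 15.1 and 2.60 in that order, which is 1 count in muscle and in sWAT. Macrophage markers came to 498 CPM in muscle, 784 in liver, 2525 in oWAT and 1849 in sWAT, with 3 of 16 at 0 in muscle. The adipocyte list, of which PCK1 and RBP4 are members, had 3 of 20 at 0 in muscle and 3 not among the names analysed here. Endothelial markers did not follow that order, with 1407 CPM in muscle, 409 in liver, 2744 in oWAT and 4689 in sWAT. Nor did fibroblast markers, at 22679 CPM in muscle and 436 in liver. Smooth muscle and pericyte markers came to 2678 CPM in muscle, 382 in liver, 1893 in oWAT and 2613 in sWAT. APOE, CTSL, LIPA and SLC40A1 are known from macrophages as well as from other cells, and the part of these cell types in their values was not tested.

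The choice of scaling weighed more on the lower set. Of the 390 genes called higher with the library total, 364 were also called with TMM, and 77 others were added. Of the 84 called lower, 46 were also called with TMM, and 4 were added: C1QC, C7, MAOA and TNFRSF21. Against oWAT alone the number past the bound as lower changed from 385 to 150 with TMM, and against liver alone from 315 to 456.

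**Figure D5:**
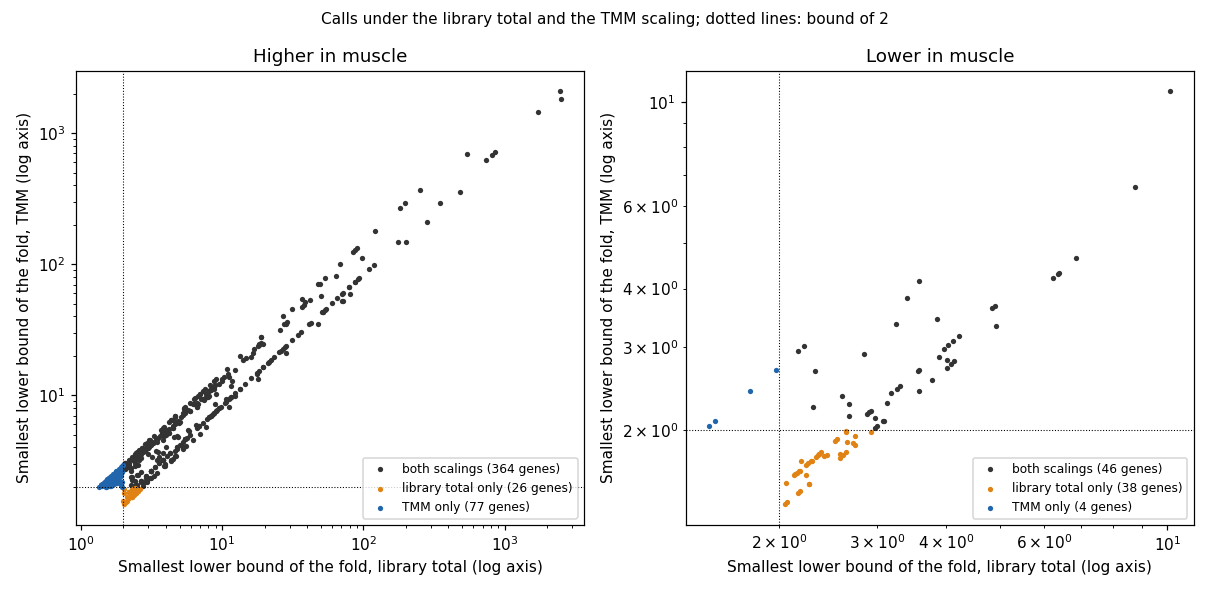
Smallest lower bound of the fold over the 3 pairings with the library total (horizontal) and with TMM (vertical), on log axes, for genes called higher (left) or lower (right) under either. Dotted lines mark the bound of 2: 364 genes called higher and 46 called lower lie past both lines.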

How the data were processed

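The deposited files hold counts per gene, whole numbers that the authors did not normalize. Reads were aligned with minimap2 2.24, per the submitters' processing notes; for the genome build, annotation, strand use and reads shared by similar genes, the sources used here give nothing. Library RNA came from 5 monkeys pooled by tissue, per the labels' protocols. The fat files carry other tissue abbreviations in their names, and the labels were followed. A gene not listed in a file was taken as 0. The entry that names no gene (14.3% of muscle counts, 16.6% to 19.5% elsewhere) was left out.

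Folds are ratios of scaled counts with exact Clopper-Pearson intervals. TMM factors (edgeR 4.0.16) and size factors (DESeq2 1.42.0) were used for scaling alone, in R 4.3.3; other steps used Python 3.11.15 with SciPy 1.17.1. List medians add 0.5 counts. Reads carry no molecular identifiers here, so intervals and floors cover counting error only. The calling rule was run on simulated counts that varied around set values by counting error alone. That run does not bear on spread between animals or on scaling.

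The 28 process lists and 10 marker lists, and the calling rule were chosen with earlier results of these data known. Named genes were the 15 called higher with the largest bound outside contractile, calcium-store and glycolytic families, the 20 called lower with the largest bound, the 10 most abundant called lower, and members of the lists. NOL3, EPN1, TACC2, APMAP and TNFRSF21 are exceptions, chosen after their values were seen. No sequence or coordinate is reported, as the build is not named. Alternatives were other scalings, minimum counts, bounds and interval levels. Some genes are not reported here.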

Additional observations from a re-analysis of the deposited data

How the results depend on the processing

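No paired analysis was possible because each tissue has 1 library, which also leaves no library to leave out. The number of genes called higher stayed within 1.5 times its value under each scaling, minimum count and the 99% interval, between 339 and 441. With the bound at 1 it was 808 (756 with both scalings) and with the bound at 4 it was 232 (221 with both). The number called lower was 50 with TMM, 53 with DESeq2 size factors and 78 with totals that leave out the 10 most abundant genes of each library. It was 417 with the bound at 1 (267 with both scalings) and 16 with the bound at 4 (6 with both). With a 99% interval the lower genes called under both scalings numbered 27. The stricter bounds and the wider interval lower the counts by construction. Among 102 single genes tracked as higher, 5 lost the call with TMM and with DESeq2 scaling (CRY2, PRKAB2, RAPSN, RBM20 and TFEB). Of 36 tracked as lower, 11 lost it with TMM and 10 with DESeq2 scaling, as AKR1C1 was kept by the latter, and ADH1B and LSS also lost it without the most abundant genes. The cause was not tested, and none changed direction under these 3 scalings. Of 336 values of the lists under other settings, 27 moved beyond the limits set for them. Depth limits the genes near the minimum: the fewest muscle counts of a gene called higher was 11.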

Other observations

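Some pairs of related genes divided between muscle and the other tissues. The 12 pairs compared were chosen after their values were seen, and each holds a form called higher in muscle. In 8 of them the other form was not called: PHKA2, PHKG2, RPL3, FBP1, SLC25A5, GYS2, ADSS2 and CPT1A. The muscle forms beside them were PHKA1, PHKG1, RPL3L, FBP2, SLC25A4, GYS1, ADSS1 and CPT1B. FBP1 and GYS2 fell short of the minimum count in oWAT and sWAT, so a lower call was not tested for them. FBP1 had 0 counts in muscle, 268 in liver, 5 in oWAT and 1 in sWAT. GYS2 had 0 in muscle, 204 in liver, 1 in oWAT and 0 in sWAT. PYGM, the muscle glycogen phosphorylase, had 2612 counts in muscle, 1 in liver, 6 in oWAT and 4 in sWAT, while PYGL was called lower. The kinase that activates phosphorylase divided in the same direction for its alpha subunit: PHKA1 had 493 counts in muscle, 4 in liver, 9 in oWAT and 14 in sWAT (30.7-fold, 18.1 to 56.6), and PHKA2 had 7, 47, 18 and 22 in that order, short of a call. MYLK2, the light chain kinase of skeletal muscle, had 392 counts in muscle and 0 elsewhere, whereas MYLK had 29 in muscle, 115 in liver, 104 in oWAT and 145 in sWAT (3.98-fold lower in muscle, 2.61 to 6.22).

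Translation factors showed such a division too. EEF1A2 had 41 counts in muscle and 0 in the other 3 libraries (at least 11.9-fold), and EEF1A1 had 138 in muscle, 367 in liver, 384 in oWAT and 365 in sWAT (2.67-fold lower, 2.19 to 3.27). RPL3L, a ribosomal protein form of striated muscle, had 35 in muscle and 0 elsewhere, and RPL3 had 33, 57, 94 and 87. For isocitrate dehydrogenase, the mitochondrial IDH2 had 205 counts in muscle, 23 in liver, 43 in oWAT and 35 in sWAT (4.30-fold, 3.08 to 6.12) against the lower call of the cytosolic IDH1. In 4 of the 12 pairs the other form was called lower (PYGL, MYLK, EEF1A1 and IDH1), and MYLK and EEF1A1 lost that call with TMM. The smallest contrast with liver was in ADSS2, with 10 counts in muscle, 10 in liver, 25 in oWAT and 15 in sWAT. Reads of such close copies may have been split or shared in the authors' counting, which is not described in the sources used here.

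The genes that follow are outside the lists and were chosen after their values were seen. Of nuclear import genes, those called higher included IPO13 at 7.04-fold (5.05 to 10.04), KPNA1 at 3.58-fold (2.82 to 4.59) and KPNA3 at 3.30-fold (2.49 to 4.42). No list of import genes was drawn up, so the share of them called is not given. SRPK3, a kinase of splicing factors, had 46 counts in muscle and 0 elsewhere. Of mitochondrial genes, PINK1, a kinase of mitochondrial quality control, had 623 counts in muscle, 98 in liver, 137 in oWAT and 76 in sWAT (4.10-fold, 3.40 to 4.97), and COQ8A, of coenzyme Q synthesis, was called at 8.03-fold over liver (6.25 to 10.5). Among genes called lower, KLB, the co-receptor for FGF21, had 1 count in muscle, 15 in liver, 22 in oWAT and 25 in sWAT, and the junction gene CLDN1 had 0 in muscle, 73 in liver, 46 in oWAT and 11 in sWAT.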
